A study of Rattus norvegicus with 9 samples.

Results

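The miR-221 and miR-222 cluster is a pair of neighbouring microRNA hairpins, and its members here were all rows of the deposited miRNA table named miR-221 or miR-222 with any arm suffix. There were 4 such rows of 726: rno-miR-221-5p, rno-miR-221-3p, rno-miR-222-5p and rno-miR-222-3p, written below without the prefix for rat. They were measured by small RNA sequencing in primary wild-type cultures of rat cartilage progenitor cells from condylar cartilage. The 9 libraries fall into 3 groups of 3: cells at passage 3 (P3, the control), cells taken to passage 9 (P9, the replicative senescence group of the submitters' design) and passage 3 cells under flow fluid shear stress (FFSS), the drag of moving medium on the cell surface. The strength and duration of the flow, and the age and number of the animals, are not known from the labels. Since the labels do not tie replicates to separate cultures or animals, p-values speak only of the spread among these libraries, which may be technical.

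A microRNA hairpin is cut from a longer transcript, and each of its arms, named 5p and 3p, can be loaded into an Argonaute protein, where bases 2 to 8 of the strand (the seed) pair with target messenger RNAs. In most cells 1 arm is kept and the other is largely discarded. The 3p arms of miR-221 and miR-222 are known as repressors of the cyclin-dependent kinase inhibitors p27 (Cdkn1b) and p57 (Cdkn1c) and of the receptor Kit, and they are studied in proliferating vascular smooth muscle, endothelium and tumour cells. The messenger RNAs were not analysed here.

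The mature sequences are shown because the 3p arms share a seed and the 5p arms do not. They are given 5′ to 3′ from RefSeq, with the seed in capitals:
miR-221-3p: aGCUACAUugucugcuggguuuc
miR-222-3p: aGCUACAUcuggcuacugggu
miR-221-5p: aCCUGGCAuacaauguagauuuc
miR-222-5p: gGCUCAGUagccaguguagau
The 3p arms began with 8 identical bases and matched at 11 of 21 positions when aligned from the first base without gaps. The 5p arms matched at 5 of 21 positions. Of the 578 rows of the table with a mature sequence in RefSeq, no row outside the cluster carried the seed of any of the 4 arms.

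The hairpins are shown because the ratios of their arms are compared below. The mature arms are in capitals, the 5p arm first:
Mir222: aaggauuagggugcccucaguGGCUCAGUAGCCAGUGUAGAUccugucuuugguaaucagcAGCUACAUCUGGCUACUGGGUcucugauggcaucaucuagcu
Mir221: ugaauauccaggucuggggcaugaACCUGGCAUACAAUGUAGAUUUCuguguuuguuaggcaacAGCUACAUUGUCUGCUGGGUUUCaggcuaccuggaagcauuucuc
In the RefSeq build GRCr8 they lie on the plus strand at chrX:6022621-6022723 (Mir222) and chrX:6023182-6023290 (Mir221), with 458 bases between them. The build named for the authors' alignment is an older one, Rnor_6.0, and no deposited value depends on these coordinates. In GRCr8 both hairpins lie within the span of 2 long noncoding RNA genes, LOC120099382 on the same strand and LOC120099384 on the opposite one. Hairpins so close on 1 strand are commonly cut from 1 transcript. The arms within a hairpin have equal lengths, 23 bases for miR-221 and 21 for miR-222, so read counts of the arms can be set against each other without a length term, although the efficiency with which each end was ligated is not known.

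Libraries held between 2878910 and 8862560 miRNA reads, and FFSS replicates 1 and 3 were the shallowest. P9 replicate 3 stood apart: its correlation of log2 CPM with the other P9 libraries went down to 0.947, against at least 0.982 between P3 libraries and at least 0.955 between FFSS libraries. Markers of cartilage (miR-140 and miR-455) and of mesenchyme (miR-199a, miR-214, miR-143 and miR-145) were present in all libraries, with sums of at least 2590 and 88414 CPM. Markers of other cell types were not at 0 throughout. The 6 blood miRNAs summed to 79.5 to 160.0 CPM in P3, 72.9 to 311 CPM in P9 and 171 to 602 CPM in FFSS, and the 4 striated muscle miRNAs to 133 to 146, 141 to 513 and 180 to 512 CPM, with the highest P9 value in replicate 3 for both. The 4 nervous system miRNAs summed to 507 to 1123 CPM in P3, 584 to 1490 CPM in P9 and 432 to 1287 CPM in FFSS. Nearly all of that was miR-128-3p, while miR-124-3p had at most 1.39 CPM in any library. Most of the blood sum was miR-451-5p and miR-486, which reached 276 and 296 CPM in FFSS replicate 1, while miR-223-3p had at most 0.594 CPM. The part of these cells or of their RNA in the results was not tested.

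miR-221-3p was the most abundant member. It was read at 6653, 5187 and 5196 CPM (miRNA reads scaled to a library total of 1000000) in P3, at 12872, 10397 and 7931 CPM in P9 and at 2549, 4481 and 4022 CPM in FFSS. The groups did not overlap, and all libraries fell in the order P9, P3, FFSS. miR-222-3p, with the same seed, had 2925, 2307 and 2290 CPM in P3, 4440, 4500 and 5932 CPM in P9 and 1078, 1431 and 1591 CPM in FFSS. Its groups kept that order without overlap as well, but the highest P9 library was replicate 3, which was the lowest of P9 for miR-221-3p.

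The 5p arms were scarcer. miR-221-5p stood at 389, 464 and 416 CPM in P3, at 510, 685 and 724 CPM in P9 and at 121, 115 and 85.7 CPM in FFSS. The P3 and FFSS libraries were far apart here, and no group overlapped with another. miR-222-5p was the rarest, at 16.5, 14.5 and 17.2 CPM in P3, 32.3, 26.8 and 30.7 CPM in P9 and 16.3, 19.2 and 19.5 CPM in FFSS. Its P9 libraries lay above all others, and its P3 and FFSS libraries overlapped, so that P3 replicate 2 was the lowest of the 9 and FFSS replicate 3 the highest of those 6. The FFSS values of miR-222-5p rest on 47, 136 and 76 reads, against 139, 109 and 152 reads in P3.

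**Figure D1:**
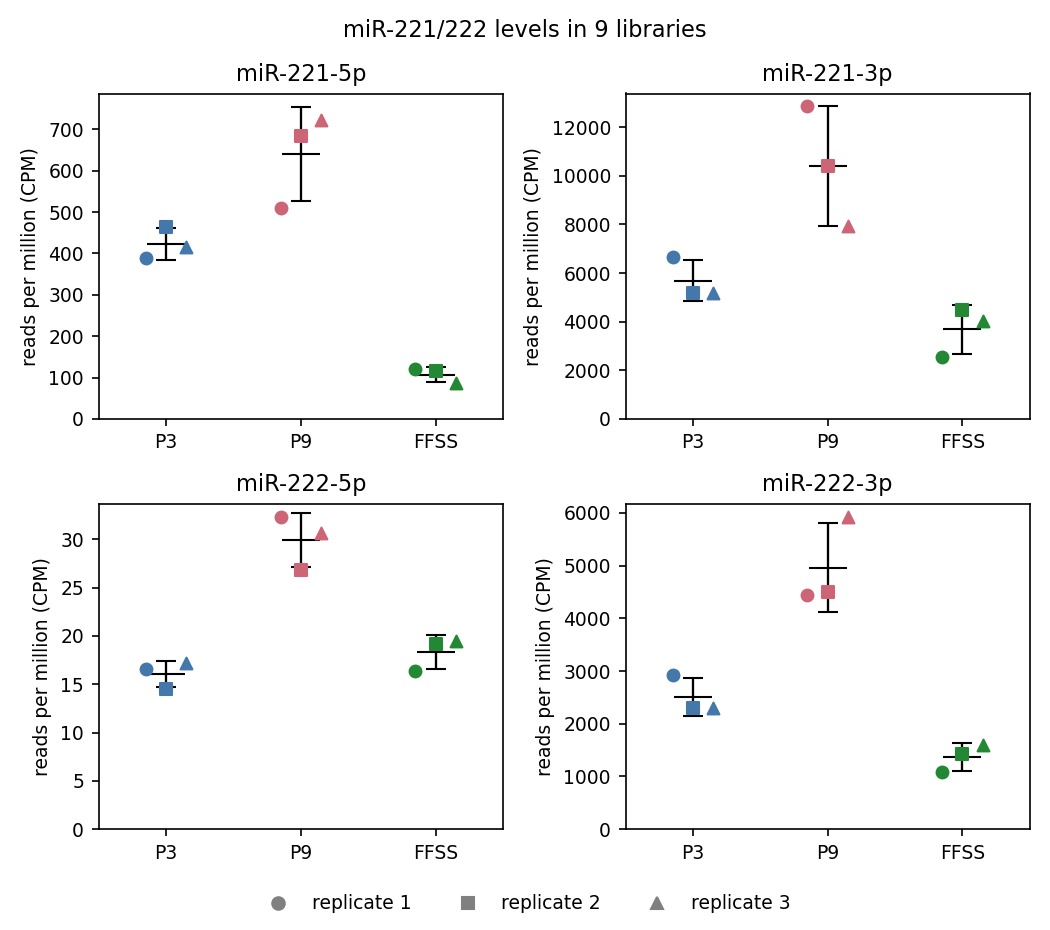
Level of each of the 4 arms in CPM (vertical axes, from 0) in the P3, P9 and FFSS libraries. Points are libraries, and bars give the mean and SD of 3 libraries. P9 is the highest group for each arm, and FFSS lies below P3 for all but miR-222-5p.

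Together the 4 arms took up 0.862% ± 0.118 of the miRNA reads in P3, 1.60% ± 0.166 in P9 and 0.518% ± 0.123 in FFSS (SD, n = 3). By number of reads, miR-221-3p ranked between 16 and 19 among the rows of the table in the P9 libraries, between 22 and 27 in P3 and between 30 and 37 in FFSS. The ranks of miR-222-3p were 25 to 27, 37 to 39 and 50 to 51. miR-221-5p ranked 55 to 70 in P9 and 124 to 143 in FFSS. In bulk RNA a lower level in each cell and a smaller share of cells that express a miRNA cannot be told apart.

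The first comparison, of P9 with P3, concerns replicative senescence. Of the 4 arms, 2 rose, miR-222-3p and miR-221-3p, both of the arms that carry the shared seed. Among the 439 miRNAs tested, 3.87% were called higher and 3.42% lower in P9 (edgeR quasi-likelihood test, Benjamini-Hochberg adjusted p under 0.05). miR-222-3p went from 2507 ± 362 to 4957 ± 844 CPM (SD, n = 3), a log2 fold change of 1.07 (SE 0.24, edgeR adjusted p = 0.0134). miR-221-3p went from 5679 ± 844 to 10400 ± 2470 CPM, a log2 fold change of 0.93 (SE 0.24, edgeR adjusted p = 0.0364).

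The 5p arms had values in the same direction that did not pass. miR-222-5p had 16.1 ± 1.39 CPM at passage 3 and 29.9 ± 2.82 CPM at passage 9 (log2 fold change 0.96, SE 0.30, edgeR adjusted p = 0.0707), and miR-221-5p had 423 ± 37.9 and 639 ± 114 CPM (0.66, SE 0.32, edgeR adjusted p = 0.318). For all 4 arms each P9 library lay above each P3 library, which held for 11.2% of the 439 miRNAs. The values of the 4 arms thus lay between 0.66 and 1.07 on the log2 scale, where the median over all miRNAs tested was 0.06.

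Both calls at passage 9 were lost when some single libraries were left out. Without P3 replicate 1, 2 or 3 the edgeR adjusted p of miR-222-3p was 0.0730, 0.0565 and 0.0900, and that of miR-221-3p was 0.139, 0.0885 and 0.138. The call on miR-221-3p was also lost without P9 replicate 1 (adjusted p = 0.153), P9 replicate 2 (0.0907) or FFSS replicate 3 (0.0569), and miR-222-5p passed without FFSS replicate 1 (0.0496). Without P9 replicate 3, the library that stood apart, miR-221-3p had 1.05 (SE 0.24, adjusted p = 0.00788) and miR-222-3p 0.86 (SE 0.23, adjusted p = 0.0185), so that the order of the 3p arms was exchanged. The call on miR-221-3p was lost as well when libraries were scaled by their size only (0.0812) and with limma on log2(TPM + 1) (0.0955) or log2(TPM + 10) (0.0952), and both calls were lost when an absolute log2 fold change of 1 was required. With the replicate number as a block, miR-221-3p no longer passed either. DESeq2 called 3 arms higher, miR-222-5p included (adjusted p = 0.0106).

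The marker sums also differed between these groups. Those of cartilage were 2590 to 3847 CPM in P9 and 4150 to 7370 CPM in P3, and those of mesenchyme 165042 to 249573 CPM in P9 and 123696 to 135424 CPM in P3, without overlap in either case. Most of the cartilage sum was miR-140-3p (log2 fold change -0.86, edgeR adjusted p = 0.0763), and miR-140-5p had -1.12 (0.0679). Both arms of miR-455 overlapped between the groups (5p -0.26, 0.765, and 3p -0.35, 0.596). By the edgeR test 0 of the 4 cartilage markers and 1 of the 5 mesenchyme markers passed. The one that passed, miR-143-3p, had 56979 to 68796 CPM in P3 and 133849 to 178130 CPM in P9, while miR-145-5p had a log2 fold change of 1.04 (edgeR adjusted p = 0.0788), miR-199a-3p -0.59 (0.293), miR-199a-5p -0.23 (0.796) and miR-214-3p -0.39 (0.501). The part of such shifts in the values of the cluster was not tested.

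The comparison of FFSS with P3 concerns flow fluid shear stress at the same passage. Of the 4 arms, 2 fell, miR-221-5p and miR-222-3p, which come from different hairpins and do not share a seed. Of the 439 miRNAs, 13.7% were called lower and 6.83% higher in FFSS. miR-221-5p went to 107 ± 18.9 CPM, a log2 fold change of -2.01 (SE 0.34, edgeR adjusted p = 0.00636), or 4.03-fold lower, and had the third smallest p of all miRNAs. miR-222-3p went to 1367 ± 263 CPM, a log2 fold change of -0.92 (SE 0.24, edgeR adjusted p = 0.0232).

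The other arm of each hairpin did not pass. miR-221-3p stood at 3684 ± 1010 CPM in FFSS (-0.66, SE 0.24, edgeR adjusted p = 0.0688), and miR-222-5p at 18.3 ± 1.76 CPM (0.15, SE 0.30, edgeR adjusted p = 0.746). In 3 of the 4 arms each FFSS library lay below each P3 library, which was so for 22.6% of the 439 miRNAs. miR-222-5p was the exception. The median over all miRNAs tested was 0.02 on the log2 scale.

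The call on miR-221-5p under shear stress held whichever of the 9 libraries was left out (adjusted p at most 0.0297). That on miR-222-3p was lost without P3 replicate 1 (adjusted p = 0.0505) or FFSS replicate 3 (0.0622), and both calls were lost when an absolute log2 fold change of 1 was required (0.0659 for miR-221-5p). miR-221-3p passed without P9 replicate 1 (adjusted p = 0.0487), P9 replicate 3 (0.0199) or FFSS replicate 2 (0.0244), with a value of -0.94 in the last case. The sign of miR-222-5p turned without P3 replicate 1 (-0.014, adjusted p = 0.974). The marker sums of blood and muscle given above were higher in each FFSS library than in each P3 library, and those of the endothelial miR-126a arms were 556 to 695 CPM in FFSS and 386 to 406 CPM in P3. The liver marker miR-122-5p had 15.5 to 51.4 CPM in FFSS and 9.87 to 11.7 CPM in P3. Epithelial markers summed to 32.3 to 82.7 CPM in FFSS and 28.3 to 29.6 CPM in P3, and the nervous system sums overlapped. By the edgeR test 1 of the 5 blood markers tested passed, miR-142-5p (1.53, adjusted p = 0.0437). Of the 5 epithelial markers tested 1 passed, miR-200b-3p (1.53, adjusted p = 0.0399). No muscle, endothelial, liver or nervous system marker passed. The cartilage and mesenchyme sums of FFSS and P3 overlapped. Of these markers only miR-145-5p passed, with 5462 to 6598 CPM in P3 and 1443 to 2821 CPM in FFSS (-1.57, edgeR adjusted p = 0.00944). miR-143-3p had -0.13 (0.727), miR-199a-3p 0.06 (0.896), miR-199a-5p -0.62 (0.172) and miR-214-3p 0.65 (0.0991). The part of all these markers in the lower values of the cluster was not tested.

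The P9 and FFSS libraries were also compared directly. Of the 4 arms, 3 were higher in P9, where 22.6% of the 439 miRNAs were called higher and 11.8% lower. miR-221-5p differed by 2.68 on the log2 scale (SE 0.34, edgeR adjusted p = 4.06e-04), or 6.39-fold, miR-222-3p by 1.99 (SE 0.25, edgeR adjusted p = 4.06e-04), or 3.97-fold, and miR-221-3p by 1.59 (SE 0.25, edgeR adjusted p = 6.87e-04), or 3.01-fold. miR-222-3p and miR-221-5p had the second and the third smallest p of all miRNAs. The difference of miR-222-5p, 0.81 (SE 0.30, edgeR adjusted p = 0.0514), did not pass, although it did without P9 replicate 3 (0.0447) or FFSS replicate 1 (0.0447). For all 4 arms each P9 library lay above each FFSS library, as for 23.0% of the 439 miRNAs. The calls on the other 3 arms held whichever of the 9 libraries was left out (adjusted p at most 0.00469).

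**Figure D2:**
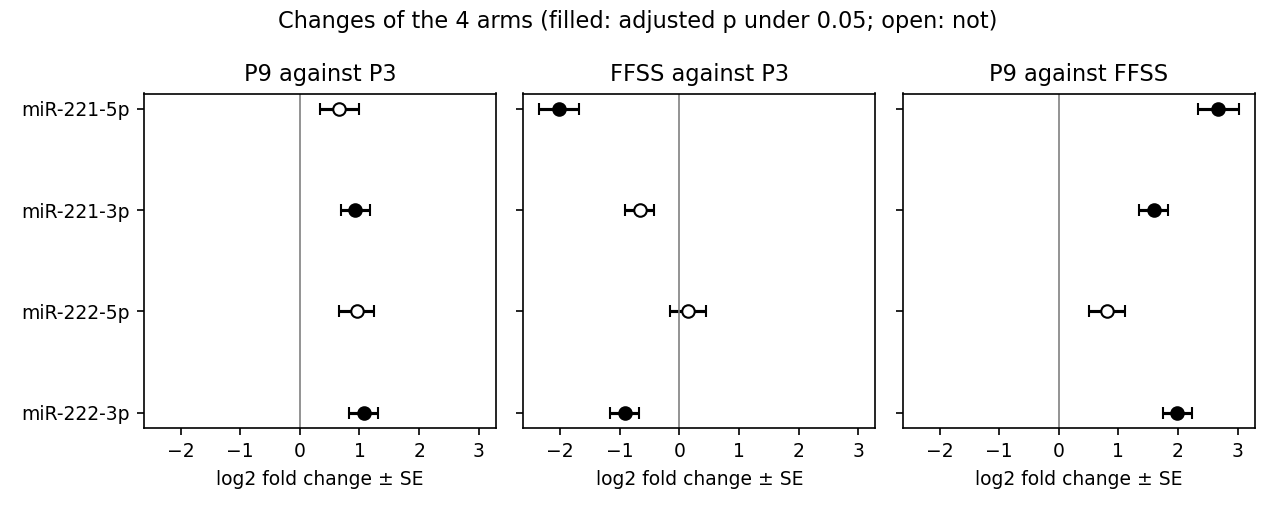
Log2 fold change of each arm (horizontal axis) with its standard error in the 3 comparisons, from the edgeR fit of all 9 libraries. Filled points have an adjusted p under 0.05. The 4 arms lie close together for P9 against P3 and apart for FFSS against P3, from -2.01 for miR-221-5p to 0.15 for miR-222-5p.

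The arms of 1 hairpin come from 1 precursor, so their ratio tests directly whether they changed alike and does not depend on scaling between libraries. In the miR-221 hairpin the 3p arm had 17.1, 11.2 and 12.5 reads for each 5p read in P3 and 25.2, 15.2 and 10.96 in P9, and these groups overlapped. In FFSS it had 21.1, 38.8 and 46.9 reads for each 5p read, all above the P3 libraries. In the miR-222 hairpin the 3p arm was further ahead, with 177, 159 and 134 reads for each 5p read in P3 and 137, 168 and 193 in P9. For FFSS this number was 66.0, 74.5 and 81.6, below every other library. Groups without overlap in this ratio were seen for 44.9% of 89 hairpins between FFSS and P3 and for 30.3% between P9 and FFSS. The dominance of the 3p arm therefore grew in one hairpin under shear stress and shrank in the other.

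For FFSS against P3, the log2 ratio of 5p to 3p reads fell by 1.33 in miR-221 (SE 0.38, limma adjusted p = 0.0394), or 2.52-fold, and rose by 1.08 in miR-222 (SE 0.27, limma adjusted p = 0.0268), or 2.11-fold. Of the 89 hairpins with enough reads on both arms, 8.99% had a lower ratio and 3.37% a higher one by this test, and the median difference over all 89 was -0.25. miR-222 was therefore 1 of 3 hairpins with a ratio called higher. Ordered from the lowest to the highest difference, miR-221 held place 11 and miR-222 place 84 of 89.

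For P9 against P3 neither ratio passed. The difference was -0.27 in miR-221 (SE 0.38) and -0.08 in miR-222 (SE 0.27), both with a limma adjusted p of 0.990, and 0% of the 89 hairpins were called in either direction. The sign turned without P9 replicate 1 for miR-221 (0.052) and without P3 replicate 3 (0.026) or P9 replicate 3 (0.032) for miR-222. For P9 against FFSS the ratio of miR-222 was lower in P9 by 1.16 on the log2 scale (-1.16, SE 0.27, limma adjusted p = 0.0184), where 4.49% of hairpins were called lower and 6.74% higher. That of miR-221 was higher by 1.06 (SE 0.38) and did not pass (limma adjusted p = 0.0920), except without FFSS replicate 1 (1.40, adjusted p = 0.0394).

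Some calls on the arm ratios were lost when 1 library was left out. For FFSS against P3, miR-221 no longer passed when P3 replicate 1, 2 or 3 was left out (adjusted p = 0.0726, 0.148 and 0.125), nor without P9 replicate 2 (0.0597), FFSS replicate 2 (0.113) or FFSS replicate 3 (0.186), with differences between -1.67 and -1.10 over the 9 fits without 1 library. miR-222 no longer passed when P3 replicate 1, 2 or 3 was left out (adjusted p = 0.116, 0.101 and 0.0738), with differences between 0.99 and 1.19. For P9 against FFSS, miR-222 lost it without P9 replicate 2 (0.0893) and in a fit of these groups alone (0.0713). Each of these calls on the arm ratios was also lost when the replicate number was added to the model as a block, as given at the end.

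**Figure D3:**
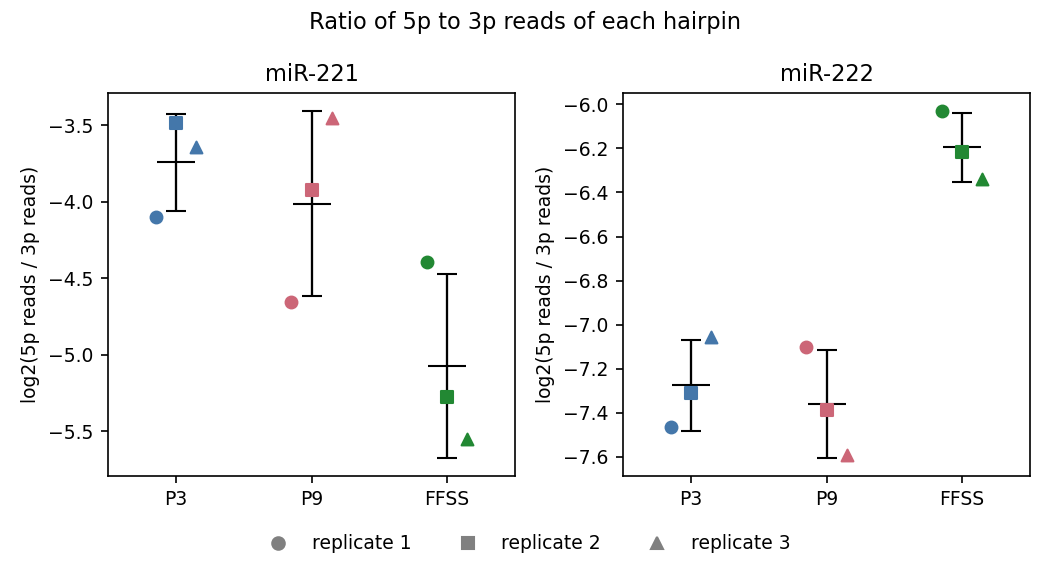
Log2 ratio of 5p to 3p reads (vertical axes, each with its own range) of the miR-221 and miR-222 hairpins in the P3, P9 and FFSS libraries. Points are libraries, and bars give the mean and SD of 3. The FFSS libraries lie lowest for miR-221, apart from an overlap with P9, and highest for miR-222.

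**Figure D4:**
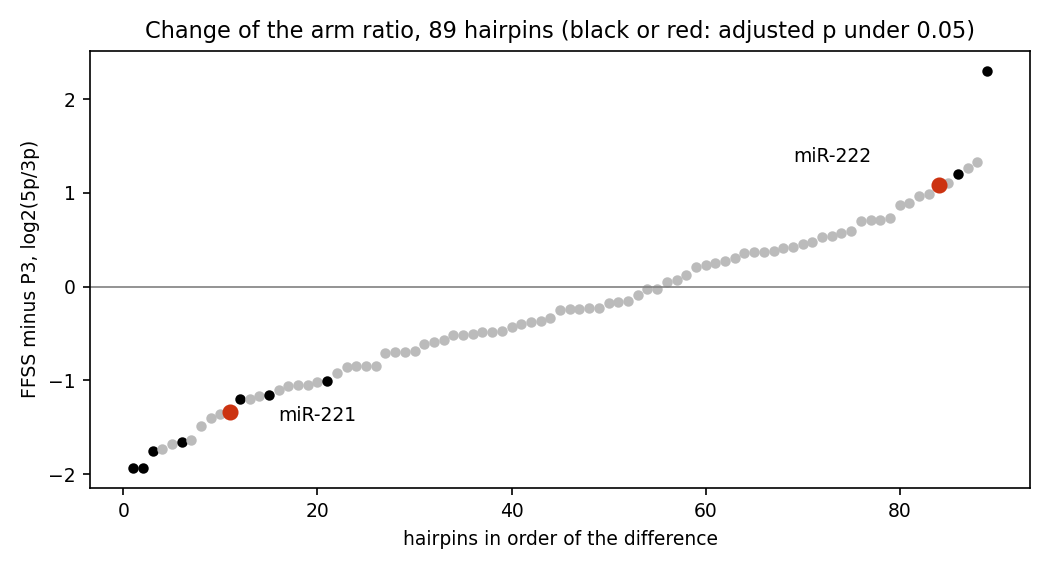
Difference of the log2 5p to 3p ratio between FFSS and P3 (vertical axis) for 89 hairpins in order of size (horizontal axis). Hairpins with an adjusted p under 0.05 are black or, for the cluster, red, and miR-221 and miR-222 lie on opposite sides of 0.

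Whether the hairpins themselves changed alike was read from the ratio of miR-222 to miR-221 on the same arm. Between the 3p arms, miR-222 had 0.440, 0.445 and 0.441 reads for each miR-221 read in P3, a spread of 0.00280 (SD, n = 3). The P9 libraries had 0.345, 0.433 and 0.748, on both sides of P3, and the FFSS libraries 0.423, 0.319 and 0.396, all below P3. The FFSS and P3 groups differed by -0.23 on the log2 scale (SE 0.12, exact two-sided permutation p = 0.1), and 0.1 is the smallest p that 3 against 3 libraries can give. Over the fits without 1 library it ran from -0.31 to -0.11, the last without FFSS replicate 2. For P9 against P3 the difference was 0.12 (SE 0.33, exact two-sided permutation p = 1), and it turned to -0.19 without P9 replicate 3, the library with the ratio of 0.748.

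Between the 5p arms, miR-222 had 0.0425, 0.0313 and 0.0412 reads for each miR-221 read in P3 and 0.0634, 0.0392 and 0.0424 in P9. Under shear stress it had 0.135, 0.166 and 0.228. The FFSS libraries thus lay above all others, and P9 overlapped with P3. FFSS and P3 differed by 2.18 on the log2 scale (SE 0.26, exact two-sided permutation p = 0.1, the smallest possible), or 4.55-fold, against 0.31 for P9 and P3 (SE 0.26, exact two-sided permutation p = 0.5), which came to 0.099 without P9 replicate 1 and to 0.17 without P3 replicate 2. Between P3 and FFSS the proportion of the 3p arms, which share their seed, thus moved by 1.17-fold on average and that of the 5p arms by 4.55-fold. The ratio of these ratios, chosen after the values were seen, differed between FFSS and P3 by 2.41 on the log2 scale (SE 0.30, exact two-sided permutation p = 0.1). It restates the arm ratios of both hairpins given above, which moved in opposite directions without overlap of FFSS and P3. Its p and its lack of overlap followed from those ratios, so it adds no separate evidence.

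**Figure D5:**
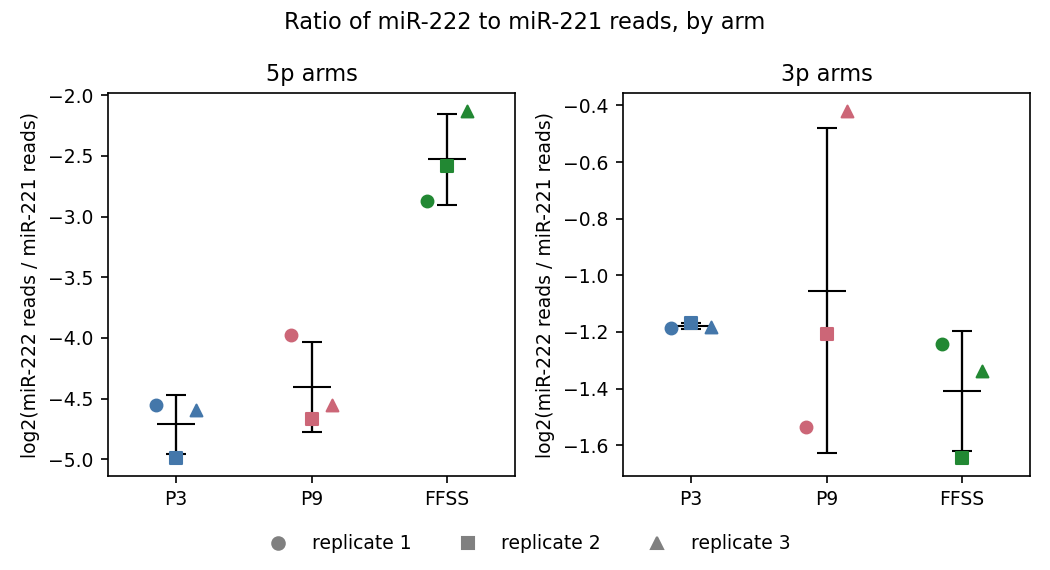
Log2 ratio of miR-222 to miR-221 reads (vertical axes, each with its own range) for the 5p and the 3p arms in the P3, P9 and FFSS libraries. Points are libraries, and bars give the mean and SD of 3. The P3 libraries nearly coincide for the 3p arms, P9 replicate 3 lies highest there, and the FFSS libraries lie highest for the 5p arms.

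Patterns across the 9 libraries were compared by the root mean square difference of log2 CPM, scaled by TMM and centred on each miRNA's mean, as a description without a test. miR-221-3p and miR-222-3p were 0.32 apart, and none of the 178 other miRNAs with a mean of at least 50 CPM lay closer to miR-222-3p. The arms of 1 hairpin were further apart, by 0.72 for miR-221 and 0.55 for miR-222, and the 5p arms by 1.001. Since the groups differ, this measure reads mostly the 3 group levels.

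Outside the cluster, the rows closest to miR-221-3p were miR-145-3p (0.25) and miR-143-3p (0.29), from the smooth muscle and fibroblast cluster miR-143/145, and miR-379-5p (0.33). miR-143-3p also rose at passage 9 (log2 fold change 1.35, edgeR adjusted p = 0.00348) but had -0.13 under shear stress (edgeR adjusted p = 0.727). Those closest to miR-221-5p were miR-7a-5p (0.26) and the rows miR-409a-3p and miR-409b (both 0.36), whose levels lay close together in every library. miR-7a-5p, at 6035 ± 1702 CPM in P3, 8969 ± 1939 CPM in P9 and 1878 ± 664 CPM in FFSS (SD, n = 3), fell under shear stress like miR-221-5p (-1.72, edgeR adjusted p = 0.00985).

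The rows closest to miR-222-3p were miR-3543 and miR-434-3p, identical in every library (0.34), and miR-134-5p (0.37). Of these, miR-434 and miR-134 belong to the imprinted Dlk1-Dio3 locus, as do miR-379 and miR-409 among the rows closest to the miR-221 arms. Those closest to miR-222-5p were miR-28-3p (0.28), miR-146b-5p (0.29), an inhibitor of NF-kB signalling, and miR-181a-1-3p (0.32). No row was named for more than 1 member. The share of Dlk1-Dio3 miRNAs among the 178 compared was not counted, so nothing is read from that shared locus.

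Other miRNAs known to act on cyclin-dependent kinase inhibitors were read as a list of 10, of which 9 were tested: miR-17-5p, miR-20a-5p, miR-93-5p and miR-106b-5p, which target p21, miR-25-3p, miR-92a-3p and miR-92b-3p, which target p57, miR-24-3p, which targets p16, and miR-181a-5p, for p27. The tenth, miR-20b-5p, was removed by the filter on low counts. At passage 9, 1 of 9 rose and 0 fell, where 3.87% and 3.42% of all miRNAs tested did, with a median log2 fold change of 0.02: miR-92b-3p (1.30, SE 0.37, edgeR adjusted p = 0.0490). It passed in only 1 of the 9 fits with 1 library left out, that without FFSS replicate 1, and its adjusted p reached 0.179 without P3 replicate 2. Under shear stress 2 of 9 rose and 2 fell, where 6.83% and 13.7% of all miRNAs tested did, with a median of 0.02. miR-92b-3p (1.94, SE 0.37, edgeR adjusted p = 0.00724) and miR-24-3p (0.84, SE 0.27, edgeR adjusted p = 0.0459) rose, and miR-20a-5p (-1.72, SE 0.46, edgeR adjusted p = 0.0267) and miR-17-5p (-1.18, SE 0.38, edgeR adjusted p = 0.0459), from 1 cluster, fell. Of these, miR-92b-3p passed whichever library was left out. It was scarce, at 3.02 ± 0.903 CPM in P3, 7.09 ± 1.32 CPM in P9 and 11.9 ± 2.39 CPM in FFSS (SD, n = 3). miR-24-3p passed only in the fits that left out P9 replicate 3 or FFSS replicate 1, and its adjusted p was highest, at 0.186, when P3 replicate 3 was left out. miR-17-5p no longer passed when the library left out was the first or the third of P3, the second of P9, or the second or the third of FFSS, and miR-20a-5p when it was the first or the third of P3 or the third of FFSS. Their highest adjusted p-values, 0.136 and 0.0939, both came when FFSS replicate 3 was left out. Against these, the 3p arms of miR-221 and miR-222 had 0.93 and 1.07 at passage 9 and -0.66 and -0.92 under shear stress.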

How the data were processed

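Small RNA reads of 9 rat cell libraries had been counted by the authors for 726 miRNA rows, and the deposited counts and deposited TPM values were used. Per the file headers the table holds read counts and TPM; the TPM equalled the count scaled to a library total of 1000000 (CPM) with a largest difference of 4.85e-05. Per the submitters' processing notes, Bowtie and the build Rnor_6.0 were used. The counter, the annotation release and the division of reads that fit several rows are, in this series, not given in the sources used here. No other row had counts near those of a member (within 10% or 5 reads in every library).

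All rows were fitted with edgeR 4.0.16 (R 4.3.3): filterByExpr left 439 miRNAs and removed 0.00685% of reads, TMM scaling, 1 model of 9 libraries in 3 groups, robust quasi-likelihood tests, and Benjamini-Hochberg adjustment over the 439 at 0.05. Log2 ratios of 5p to 3p counts (0.5 added to both) were tested with limma 3.58.1 over the 89 hairpins whose arms both averaged 20 counts or more. Ratios of miR-222 to miR-221 were tested by exact permutation. Alternatives included DESeq2 1.42.0 and are given at the end. Scripts were tested on simulated data. Sequences are RefSeq's (GRCr8), found for 578 of the 635 annotated rows.

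Named besides the members are the 3 miRNAs most like each in pattern and, of each list, up to 3 with the smallest p in each comparison; the list of cyclin-dependent kinase inhibitor miRNAs, being short, is named whole. The members, lists and rules were chosen with earlier results of these data known. The labels do not say whether replicate numbers pair the libraries, and the main fits treat them as unpaired.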

Additional observations from a re-analysis of the deposited data

How the results depend on the processing

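Each member was refitted under 22 alternatives, the ratios of arms under 13 and those of hairpins under 8. For P9 against FFSS the calls on miR-221-5p, miR-221-3p and miR-222-3p held in all 22, with values of 2.47 to 2.95, 1.496 to 1.87 and 1.85 to 2.21, and miR-221-5p for FFSS against P3 held in all but 1.

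The call on miR-221-3p at passage 9 was lost with library size only (0.87), on log2(TPM + 1) (0.86) and log2(TPM + 10) (0.85), and with the replicate block (0.92), which left 1 arm called. With an absolute log2 fold change of 1 required, 0 arms were called at passage 9 (miR-221-3p 0.93, miR-222-3p 1.07) and 0 under shear stress (miR-221-5p -2.01, adjusted p = 0.0659, and miR-222-3p -0.92). miR-222-5p passed at passage 9 with a mean of at least 50 counts (1.06) and in DESeq2 (0.95), and for P9 against FFSS in these (0.85 and 0.76) and in limma-voom (0.80). miR-221-3p passed under shear stress with TMM without the 10 most abundant miRNAs (-0.74) and when P9 stayed out of the fit (-0.65). The replicate block ended the 3 calls on arm ratios: miR-221 and miR-222 for FFSS against P3 (-1.33, adjusted p = 0.0797, and 1.08, 0.0731) and miR-222 for P9 against FFSS (-1.16, 0.0540), the last lost also in a fit of only these groups (-1.16, 0.0713). Causes were not tested. The labels do not say whether replicate numbers pair the samples. Same-numbered libraries correlated at -0.42 to 0.14 in their deviations from the group means, and not every library did so best with its own number. With so few libraries in a group, this cannot exclude a pairing.

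Over the fits that left out 1 library, the values for P9 against P3 were 0.80 to 1.05 for miR-221-3p, 0.89 to 1.05 for miR-222-5p and 0.86 to 1.17 for miR-222-3p, with 0 to 3 arms called higher. For FFSS against P3 they were -0.94 to -0.61 for miR-221-3p, -0.014 to 0.18 for miR-222-5p and -1.06 to -0.93 for miR-222-3p, with 1 to 3 called lower, and for P9 against FFSS 0.78 to 0.96 for miR-222-5p. Arm ratios of miR-221 ran from -0.55 to 0.052 (P9 against P3), -1.67 to -1.10 (FFSS against P3) and 0.78 to 1.40 (P9 against FFSS), and those of miR-222 from -0.21 to 0.032, 0.99 to 1.19 and -1.29 to -1.05. The 3p ratio of miR-222 to miR-221 for P9 against P3 ran from -0.19 to 0.37. Where 1 group had 2 libraries, they were assumed to vary like the others. The few reads of miR-222-5p, down to 47, limit its precision and that of its ratios.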

Other observations

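The other miRNAs of the X chromosome were counted as a list, since both hairpins lie there. RefSeq places 102 mature miRNAs on this chromosome alone besides the members, of which 43 were tested. At passage 9, 4 of the 43 were called higher and 0 lower, where 3.87% and 3.42% of all miRNAs tested were. The 4 were both arms of miR-325 and of miR-384, all at most 8.88 CPM on average in any group. miR-384-3p, miR-384-5p and miR-325-3p averaged at most 0.530 CPM in P3 and in FFSS and passed the filter on low counts only through P9, the group where they are high, so nothing is read from this count for the list. Without P3 replicate 1 or P3 replicate 3 the number called higher was 2, and without P9 replicate 3 it was 5, with 2 called lower. Under shear stress 2 rose and 4 fell (4.65% and 9.30%, against 6.83% and 13.7%), with a median log2 fold change of -0.16. By the smallest p these included miR-374-3p, which went from 50.9 ± 2.88 to 16.3 ± 3.61 CPM (SD, n = 3, log2 fold change -1.67, edgeR adjusted p = 0.00944), and miR-450a-5p, from 206 ± 6.76 to 97.1 ± 3.06 CPM (-1.13, edgeR adjusted p = 0.0250). miR-224-5p rose from 189 ± 19.0 to 571 ± 145 CPM (1.55, edgeR adjusted p = 0.0323). Of these, miR-374-3p passed whichever library was left out, miR-450a-5p not without P3 replicate 2 (adjusted p = 0.0530) or FFSS replicate 3 (0.0872), and miR-224-5p only when the library left out was one of the P9 libraries or the second of FFSS (highest adjusted p 0.110, with P3 replicate 1 left out). Without P3 replicate 1, 2 or 3 the numbers were 0 that rose and 2, 1 and 2 that fell. They were 1 and 4 without P9 replicate 1, 1 and 3 without P9 replicate 2 or FFSS replicate 2, 4 and 8 without P9 replicate 3, 3 and 5 without FFSS replicate 1, and 0 and 1 without FFSS replicate 3. Arms of 1 hairpin and hairpins of 1 cluster are not independent.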
